A study of Mus musculus with 8 samples.

Results

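The Ly6 genes studied here were *Ly6g*, *Ly6c1*, *Ly6c2*, *Ly6a*, *Ly6e*, *Ly6i* and *Ly6d*, chosen by symbol from the count table, which gave 7 of its 54188 genes. All 7 lie on chromosome 15 and all 7 passed the filter on low counts. RNA was sequenced from CD11b+Gr-1hi and CD11b+Gr-1lo cells that had been sorted from spleen and bone marrow (BM) of sanroque mice on the C57BL/6 background, at about 20 weeks of age and female by the labels. The sanroque mice are homozygous for the san allele of Roquin (san/san), a mutation that leads to a lupus-like disease. Each of the 4 groups carried this allele and none was wild type, so no value here separates an effect of the allele. The groups were BM Gr-1lo (libraries 11 and 12), spleen Gr-1lo (libraries 7 and 8), BM Gr-1hi (libraries 9 and 10) and spleen Gr-1hi (libraries 5 and 6). Pairs of libraries from 1 mouse are not marked in the labels. The study describes its 2 samples of each condition as independent biological replicates.

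Ly6 proteins are small, cysteine-rich proteins that most members of the family attach to the outer cell membrane by a glycosylphosphatidylinositol (GPI) anchor. In mouse blood and marrow they serve as markers of cell type. Ly6G is the surface marker of neutrophils and of granulocytic myeloid-derived suppressor cells, Ly6C marks inflammatory monocytes, and Ly6A, also named Sca-1, marks stem cells and activated lymphocytes. Antibodies to Gr-1 bind Ly6G and, more weakly, Ly6C. The difference of *Ly6g* and of *Ly6c1* and *Ly6c2* between Gr-1hi and Gr-1lo cells therefore belongs to the sort, and it is given as a check of the labels.

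Depth was 33453580 to 68316154 counts per library, and replicate libraries were further apart than counting alone gives (chi-square per degree of freedom 18.9 to 66.7). Most libraries went against the label of female. *Xist*, the RNA of the inactive X chromosome, reached 12032 counts in library 5 and 9898 counts in library 7, while the other 6 had 5 counts or fewer. *Ddx3y*, a gene of the Y chromosome, had 0 counts in library 5 and 33.7 to 82.6 CPM (counts scaled to library size) in the other 7 libraries. Library 5 alone matched the female label, library 7 held both RNAs, and the other 6, with all BM libraries among them, held *Ddx3y* almost without *Xist*. *Xist* was thus high in spleen libraries only, so sex and tissue cannot be fully told apart. Results are therefore also given without libraries 5 and 7, the libraries with *Xist*. This leaves library 6 alone in spleen Gr-1hi and library 8 alone in spleen Gr-1lo. *Itgam*, which encodes CD11b, was present in every library at 734 to 4904 CPM. Neutrophil markers summed to 88128 to 172680 CPM in Gr-1hi libraries and to 7551 to 13840 CPM in Gr-1lo libraries. Monocyte markers summed to 687 to 798 CPM in Gr-1hi libraries and to 6155 to 9276 CPM in Gr-1lo libraries.

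The members span 397 kb of chromosome 15 (GRCm38, positions from GENCODE M21), from *Ly6d* at chr15:74762056-74763620 on the minus strand to *Ly6g* at chr15:75155240-75159126 on the plus strand. Between them stand *Ly6e* (chr15:74955051-74959905, plus strand), *Ly6i* (chr15:74979534-74983430, minus strand), *Ly6a* (chr15:74994877-74998031, minus strand), *Ly6c1* (chr15:75044018-75048830, minus strand) and *Ly6c2* (chr15:75108158-75111970, minus strand). Another 18 rows of the count table lie within this stretch. Of these, 10 passed the filter and 2 reached 10 CPM in a group, namely *Ly6a2*, a close relative that GENCODE M21 lists as a transcribed pseudogene, and *Gm39556*, a long noncoding RNA.

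The sequences of *Ly6c1* and *Ly6c2* are shown because reads of these genes can be confused. Their coding sequences are each 396 bases long and differ at 9 bases (97.7% identity). The first 150 coding bases, from GENCODE M21, hold 6 of these, which are in capitals.
Ly6c1: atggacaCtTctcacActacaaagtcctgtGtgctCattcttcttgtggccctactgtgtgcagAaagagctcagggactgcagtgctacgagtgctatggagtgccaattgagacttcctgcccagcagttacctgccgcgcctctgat
Ly6c2: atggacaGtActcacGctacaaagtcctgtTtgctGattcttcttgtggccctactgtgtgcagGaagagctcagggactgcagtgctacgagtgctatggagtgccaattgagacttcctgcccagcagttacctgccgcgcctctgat
After the last of these capitals the printed bases are the same in the pair. Of the 1755 distinct windows of 101 bases (the read length) in the annotated transcripts of *Ly6c1*, 173 (9.86%) were also in transcripts of another gene. Of these, 155 were shared with *Ly6c2* and 18 with *Ly6a*. *Ly6c2* shared 155 of its 2737 windows (5.66%), all with *Ly6c1*. No window of *Ly6g*, *Ly6e*, *Ly6i*, *Ly6d* or *Ly6a2* was found in another gene. The counting step's treatment of such reads is not given in the sources used here, so the separate values of *Ly6c1* and *Ly6c2* are uncertain, and each test was also run on their summed counts. Other coding sequences were further apart. *Ly6a* and *Ly6i* were 86.4% identical, *Ly6g* was 80.1% identical to *Ly6c2* and 83.2% to *Ly6a*, and *Ly6e* and *Ly6d* were 58.9% to 67.7% identical to the other members and 67.0% to each other.

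Promoters are shown for *Ly6g*, *Ly6c1* and *Ly6c2*, the genes behind the Gr-1 sort, and for *Ly6a2*. RefSeq's table (GRCm38.p6) held these 4 of the 8 genes. Each line gives the 150 bases before the most upstream RefSeq start, 5′ to 3′ on the strand of the gene. Positions are counted from that start. For *Ly6g* it lies downstream of the GENCODE M21 start at base 75155240, so the last printed bases are inside the gene as placed above. Capitals mark the letters TATAAA.
Ly6g: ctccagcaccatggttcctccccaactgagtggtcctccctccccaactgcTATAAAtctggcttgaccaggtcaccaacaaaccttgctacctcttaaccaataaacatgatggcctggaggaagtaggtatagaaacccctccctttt
Ly6c1: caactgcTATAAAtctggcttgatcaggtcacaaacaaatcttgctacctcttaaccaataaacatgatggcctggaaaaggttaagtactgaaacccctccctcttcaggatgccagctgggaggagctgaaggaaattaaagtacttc
Ly6c2: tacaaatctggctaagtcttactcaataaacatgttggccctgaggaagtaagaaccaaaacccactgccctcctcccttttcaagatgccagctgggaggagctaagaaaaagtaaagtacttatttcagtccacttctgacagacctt
Ly6a2: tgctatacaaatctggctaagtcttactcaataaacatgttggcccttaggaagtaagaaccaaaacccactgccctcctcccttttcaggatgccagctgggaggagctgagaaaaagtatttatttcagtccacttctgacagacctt
These lines are chr15:75155111-75155260 (plus strand) for *Ly6g*, chr15:75048838-75048987 (minus strand) for *Ly6c1*, chr15:75111972-75112121 (minus strand) for *Ly6c2* and chr15:75135129-75135278 (minus strand) for *Ly6a2*. TATAAA began at base -99 of *Ly6g* and at base -143 of *Ly6c1*, and neither strand of the *Ly6c2* and *Ly6a2* windows held it. All patterns were sought in the full windows of RefSeq's table, which hold 250 bases before the start and some bases after it. These windows are longer than the 150 bases printed. Of the 32851 windows in the table, 13.6% held TATAAA on either strand. Aligned over the 250 bases before the start, *Ly6c2* and *Ly6a2* were identical at 98.4% of aligned bases, *Ly6g* and *Ly6c1* at 83.5%, and *Ly6c1* and *Ly6c2* at 75.9%. The letters GAAANNGAA, a pattern of interferon response elements, were in none of the 4 windows and in 8.56% of all windows. TTCNNNGAA, a pattern bound by STAT factors, was likewise in none of the 4 and in 8.30% of all windows. TTGCNNAA, a C/EBP pattern, was found on the minus strand at base -232 of *Ly6g* only, and in 10.8% of all windows. AGAGGAAG, a PU.1 pattern, was found at base 26 after the start of *Ly6c2* only, and in 4.55% of all windows. GGAAGT, a core of ETS factor sites, began at base -29 of *Ly6g*, at bases -106 and 29 of *Ly6c2* and at bases -101 and 29 of *Ly6a2*, and was in 23.8% of all windows. At base 29 of *Ly6c2* it overlaps AGAGGAAG.

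*Ly6g* was measured at 3.07 and 5.35 CPM in BM Gr-1lo libraries, 5.74 and 8.23 CPM in spleen Gr-1lo libraries, 330 and 495 CPM in spleen Gr-1hi libraries and 685 and 801 CPM in BM Gr-1hi libraries. No pair of groups overlapped, and the Gr-1hi libraries were far above the Gr-1lo libraries, as the labels of the sort say. *Ly6c2*, the more abundant of the Ly6C genes, was at 585 and 830 CPM in spleen Gr-1hi libraries, 1133 and 1516 CPM in BM Gr-1hi, 1196 and 1440 CPM in spleen Gr-1lo and 1645 and 2193 CPM in BM Gr-1lo. *Ly6c1* was at 117 and 166 CPM, 222 and 301 CPM, 249 and 290 CPM, and 317 and 410 CPM in the same order of groups. For both Ly6C genes the spleen Gr-1hi libraries were lowest and the BM Gr-1lo libraries highest, while BM Gr-1hi and spleen Gr-1lo libraries overlapped. That overlap depended on TMM, a factor that rescales each library. Without TMM, *Ly6c2* was at 829 and 1098 CPM in BM Gr-1hi and 1540 and 1820 CPM in spleen Gr-1lo libraries. These groups were apart for *Ly6c1* as well.

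*Ly6e*, whose protein is inducible by interferon and widely expressed in leukocytes, was at 393 and 474 CPM in BM Gr-1hi libraries, 847 and 1111 CPM in spleen Gr-1hi, 1492 and 1664 CPM in spleen Gr-1lo and 1543 and 1756 CPM in BM Gr-1lo. The Gr-1lo groups overlapped and the BM Gr-1hi libraries were lowest. *Ly6a* was at 27.6 and 39.4 CPM in BM Gr-1hi libraries, 44.6 and 66.5 CPM in BM Gr-1lo, 58.9 and 82.3 CPM in spleen Gr-1hi and 58.8 and 102 CPM in spleen Gr-1lo. Apart from BM Gr-1hi, each group overlapped its neighbour in this order. Without TMM the spleen groups were apart (48.3 and 70.9 CPM in Gr-1hi, 75.7 and 128 CPM in Gr-1lo). *Ly6i*, a relative of *Ly6a*, was at 2.69 and 5.61 CPM in BM Gr-1hi libraries, 4.86 and 6.84 CPM in BM Gr-1lo, 19.7 and 35.4 CPM in spleen Gr-1hi and 20.1 and 37.6 CPM in spleen Gr-1lo. Its spleen libraries lay above its BM libraries in either subset, while the subsets of a tissue overlapped. Without TMM the BM subsets were apart (1.97 and 4.07 CPM in Gr-1hi, 6.32 and 8.59 CPM in Gr-1lo). *Ly6d*, known as a marker of early B-lineage cells, was at 0.266 and 0.812 CPM in BM Gr-1lo libraries (13 and 43 counts), 1.32 and 1.61 CPM in BM Gr-1hi (32 and 43 counts), 2.39 and 2.94 CPM in spleen Gr-1lo and 10.1 and 16.7 CPM in spleen Gr-1hi. Its groups did not overlap, but without TMM the BM groups did (0.347 and 1.02 CPM in Gr-1lo, 0.957 and 1.18 CPM in Gr-1hi).

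**Figure D1:**
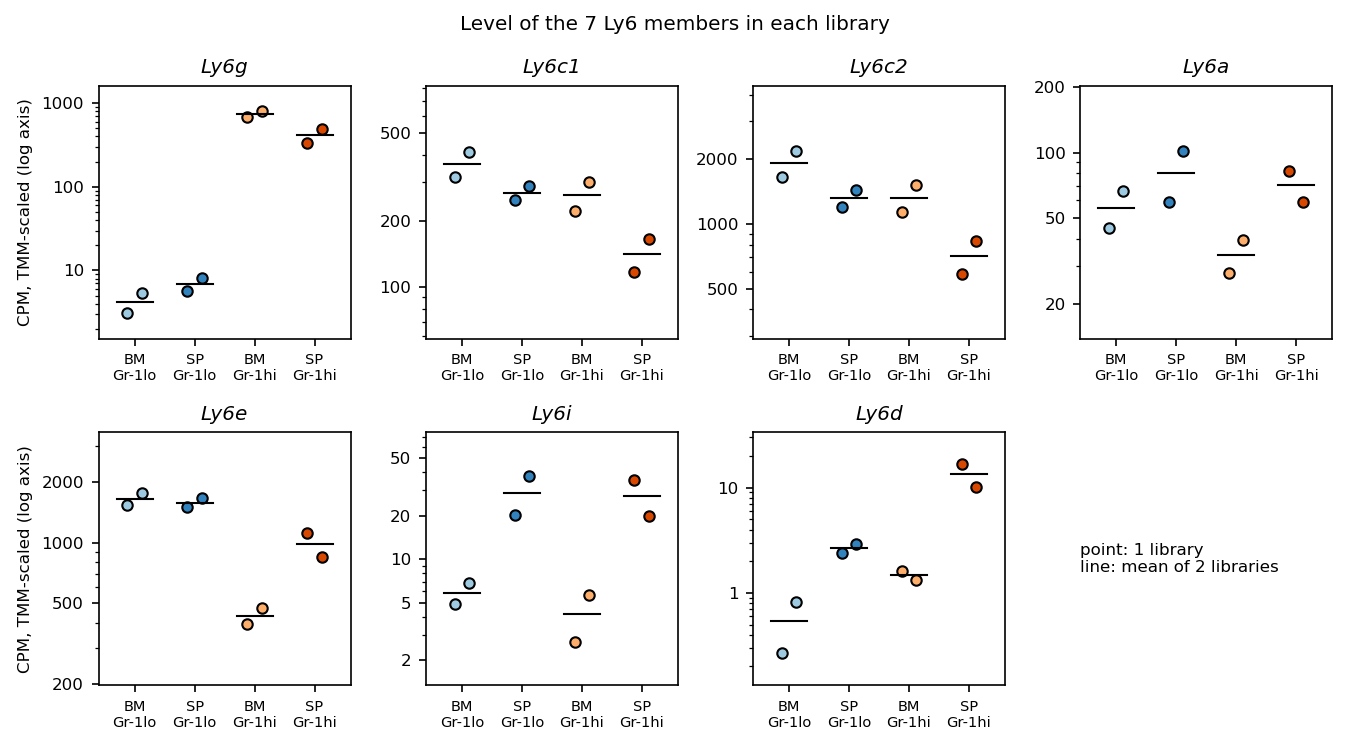
Level of each of the 7 Ly6 genes in CPM on a log axis, with a point for each library and a line at the mean of the 2 libraries of a group. *Ly6g* separates Gr-1hi from Gr-1lo libraries, *Ly6i* separates spleen from BM, *Ly6e* is lowest in BM Gr-1hi, and *Ly6d* is highest in spleen Gr-1hi at 10.1 and 16.7 CPM.

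Levels of different genes were compared as TPM, which divides by exon length. In Gr-1lo cells of either tissue the order of the group means was *Ly6c2*, *Ly6e*, *Ly6c1*, *Ly6a*, *Ly6i*, *Ly6g* and *Ly6d*. The libraries of *Ly6i* (13.1 and 18.1 TPM) and *Ly6g* (10.1 and 17.3 TPM) overlapped in BM Gr-1lo, and *Ly6g* (18.4 and 25.2 TPM) stood below *Ly6i* (52.4 and 94.0 TPM) in spleen Gr-1lo. In BM Gr-1hi cells *Ly6g* came first (1248 and 1388 TPM), above *Ly6c2* (710 and 903 TPM), *Ly6c1* (227 and 293 TPM) and *Ly6e* (178 and 205 TPM). In spleen Gr-1hi cells *Ly6g* also came first (732 and 1013 TPM), *Ly6e* (432 and 614 TPM) and *Ly6c2* (446 and 585 TPM) overlapped, and *Ly6c1* followed (146 and 191 TPM). *Ly6g* made up 33.4% to 51.8% of the summed TPM of the 7 members in Gr-1hi libraries and 0.263% to 0.689% in Gr-1lo libraries. *Ly6e* made up 7.17% and 7.40% in BM Gr-1hi libraries and 18.2% to 37.4% in the other 6.

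**Figure D2:**
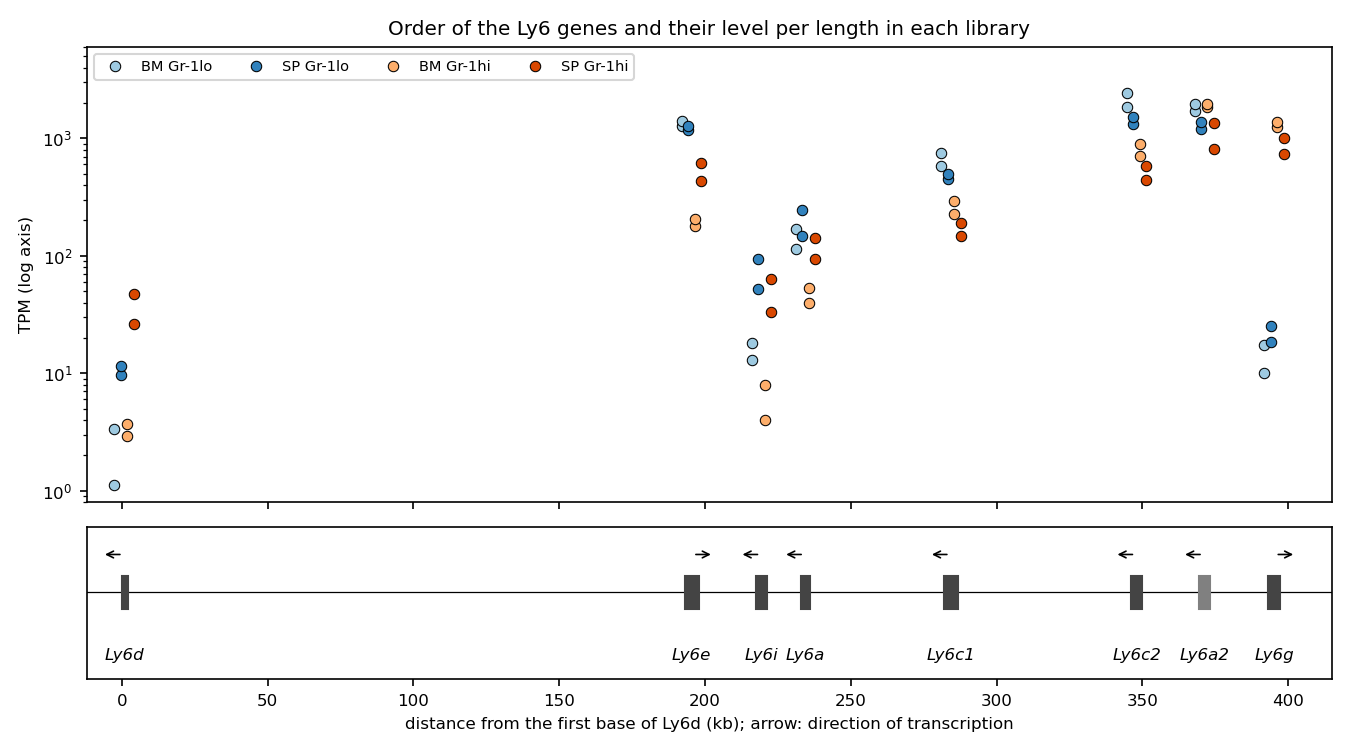
Upper panel: TPM of the 7 Ly6 genes and *Ly6a2* in each of the 8 libraries, on a log axis, at the place of each gene as distance in kb from the first base of *Ly6d*. Lower panel: the genes as boxes with the direction of transcription, to scale except that the box of *Ly6d* is widened. The neighbours *Ly6c2*, *Ly6a2* and *Ly6g* differ in pattern, with *Ly6g* lowest in Gr-1lo libraries and *Ly6c2* highest in them.

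Ratios within a library do not depend on its depth or scaling. The ratio of *Ly6c2* to *Ly6c1* in TPM was 2.94 to 3.27 over all 8 libraries. The pair kept a similar ratio in groups where their levels differed. The ratio of *Ly6g* to the sum of *Ly6c1* and *Ly6c2* was 1.16 and 1.33 in BM Gr-1hi libraries and 1.24 and 1.31 in spleen Gr-1hi libraries, so the tissues overlapped. In Gr-1lo libraries it was 0.00413 and 0.00543 in BM and 0.0104 and 0.0125 in spleen, with no overlap. The ratio of *Ly6i* to *Ly6a* was 0.102 to 0.148 in the 4 BM libraries and 0.349 to 0.448 in the 4 spleen libraries, again with no overlap. The ratio of *Ly6a2* to *Ly6c2* was 0.811 to 0.922 in the 4 Gr-1lo libraries and 1.81 to 2.60 in the 4 Gr-1hi libraries. These are the genes whose promoter windows were 98.4% identical.

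**Figure D3:**
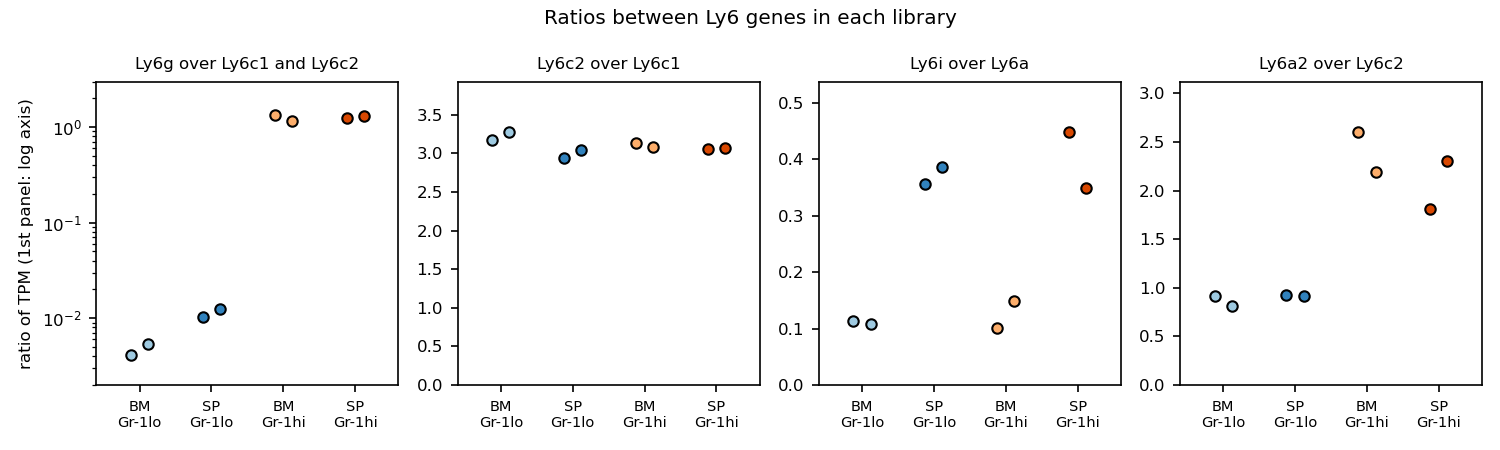
Ratios of TPM in each of the 8 libraries, by group, with a point for each library. The axis of *Ly6g* over the sum of *Ly6c1* and *Ly6c2* is logarithmic and the other axes start at 0. *Ly6c2* over *Ly6c1* stays between 2.94 and 3.27, whereas *Ly6i* over *Ly6a* splits by tissue and *Ly6a2* over *Ly6c2* by Gr-1 subset.

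Groups were compared to ask how spleen-derived cells of a subset differ from those of the BM, and how far the subsets differ within a tissue. Tests used edgeR's quasi-likelihood test on the counts with Benjamini-Hochberg adjustment over the 17650 genes tested, with 2 libraries per group, and log2 fold changes (FC) carry their standard error (SE). A gene passed the test at an adjusted p of at most 0.05. In addition, counts at further thresholds are given. For spleen against BM and for the interaction these were an FC of at least 2 with an adjusted p of at most 0.05. For Gr-1hi against Gr-1lo they were an FC above 8 with an adjusted p below 0.01. Thresholds of the comparisons between groups follow the study. The interaction was not tested there, and its threshold was chosen here. Each group enters 2 of the comparisons and the interaction, so these share libraries. In bulk RNA, fewer cells of a type and less RNA per cell cannot be told apart.

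In Gr-1lo cells, *Ly6i* and *Ly6d* were higher in spleen than in BM and no member was lower. *Ly6i* was higher by a log2 FC of 2.31 (SE 0.46, adjusted p = 0.0380) and *Ly6d* by 2.29 (SE 0.44, adjusted p = 0.0208). Thus 2 of 7 members passed upwards, against 4.88% of all genes tested, and 0 passed downwards, against 0.697%. At the study's thresholds the same 2 passed upwards (3.84% of all genes) and 0 downwards (0.215%). *Ly6g* (log2 FC 0.74), *Ly6a* (0.53), *Ly6c1* (-0.43), *Ly6c2* (-0.54) and *Ly6e* (-0.06) had adjusted p values from 0.221 to 0.854. Neither call held throughout. *Ly6i* lost it without library 5 (adjusted p = 0.0516), 6 (0.0568), 8 (0.154), 11 (0.218) or 12 (0.183), and *Ly6d* without library 7 (0.0548), 8 (0.132) or 11 (0.0762), by the same edgeR test. With no filter on low counts *Ly6i* also lost it (0.182), and with limma on quantile-normalized TPM *Ly6d* did (0.0502). Without a filter *Ly6c1* passed downwards (log2 FC -0.38, edgeR adjusted p = 0.0190). Without libraries 5 and 7 both *Ly6i* and *Ly6d* passed.

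In Gr-1hi cells, 4 members were higher in spleen, namely *Ly6d* (log2 FC 3.19, SE 0.42, adjusted p = 0.00126), *Ly6i* (2.74, SE 0.50, adjusted p = 0.00759), *Ly6e* (1.17, SE 0.15, adjusted p = 0.00114) and *Ly6a* (1.08, SE 0.34, adjusted p = 0.0490). Both Ly6C genes were lower in spleen, *Ly6c1* by a log2 FC of -0.89 (SE 0.21, adjusted p = 0.0153) and *Ly6c2* by -0.90 (SE 0.22, adjusted p = 0.0162). *Ly6g* had a log2 FC of -0.85 (SE 0.29) and an adjusted p of 0.0562. Of all genes tested, 20.1% passed upwards and 13.9% downwards. At the study's thresholds 4 members passed upwards, against 14.0% of all genes, and 0 downwards, against 1.48%. The calls of *Ly6d* and *Ly6e* held in all 16 alternatives. Without library 5, 4 of the 6 calls were lost (edgeR adjusted p = 0.0563 for *Ly6c1*, 0.0599 for *Ly6c2*, 0.319 for *Ly6a* and 0.0526 for *Ly6i*). *Ly6a* also missed the threshold without library 6 (0.0959), 9 (0.211) or 10 (0.0698), and *Ly6c2* without library 10 (0.0506). With RLE scaling *Ly6a* (0.0563) and with no filter on low counts *Ly6a* (0.242) and *Ly6i* (0.0628) missed it as well. *Ly6g* passed without library 6 (0.0385), 11 (0.0324) or 12 (0.0323), and also with RLE scaling (0.0330), with DESeq2 (0.00346) and when the fit held Gr-1hi libraries alone (0.0329). Without libraries 5 and 7, *Ly6d*, *Ly6e* and *Ly6i* passed while *Ly6a* (0.177), *Ly6c1* (0.135) and *Ly6c2* (0.130) did not.

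Transcripts of other cell types moved with tissue as well. B cell markers summed to 7.93 to 9.79 CPM in BM Gr-1lo libraries, 68.2 to 85.8 CPM in spleen Gr-1lo, 15.6 to 19.6 CPM in BM Gr-1hi and 371 to 553 CPM in spleen Gr-1hi, and *Ly6d* had the same order of groups. Of the 10 B cell markers, 9 passed upwards in spleen Gr-1lo and 10 in spleen Gr-1hi cells, against 4.88% and 20.1% of all genes tested. None of these markers was without a count in a group. T cell markers summed to 2.47 to 2.48, 25.7 to 38.4, 7.06 to 10.1 and 74.5 to 120 CPM in the same groups, which is also the order of groups of *Ly6d*. Of these T cell markers, 10 of 10 were higher in spleen Gr-1lo and 9 of 10 in spleen Gr-1hi cells. The order shared with *Ly6d* is thus not particular to B cell markers. The part of B and T cells in the values of *Ly6d*, *Ly6i* and *Ly6a* was not tested. Interferon-stimulated genes, given because *Ly6a*, *Ly6e* and the Ly6C genes are known to respond to interferon, summed to 1403 to 2167 CPM in BM Gr-1lo, 2043 to 2822 CPM in spleen Gr-1lo, 3772 to 5808 CPM in BM Gr-1hi and 8437 to 10550 CPM in spleen Gr-1hi libraries. Of these 18 genes, 3 were higher in spleen Gr-1lo and 11 in spleen Gr-1hi cells and 0 were lower in either, with a median log2 FC of 0.63 and 0.90. Of all genes tested, 0.697% and 13.9% were lower. For spleen against BM in Gr-1lo cells the log2 FC was -0.43 for *Ly6c1*, -0.54 for *Ly6c2*, 0.53 for *Ly6a* and -0.06 for *Ly6e*. None of these passed. In Gr-1hi cells it was -0.89, -0.90, 1.08 and 1.17 in the same order, and each passed with all 8 libraries. The part of interferon in the values of the members was not tested.

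**Figure D4:**
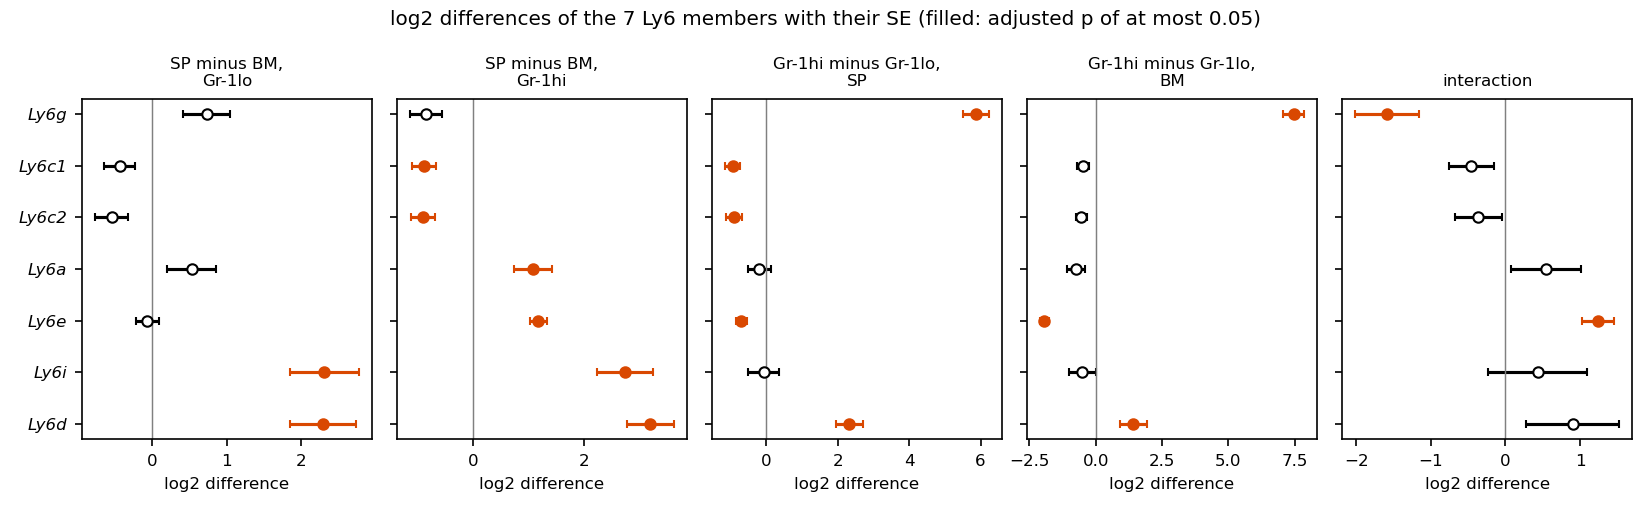
The log2 difference of each of the 7 Ly6 genes in the 4 comparisons and the interaction, with bars of 1 SE, where a filled point marks an adjusted p of at most 0.05. Of the comparisons of spleen with BM, *Ly6i* and *Ly6d* are filled in both subsets. *Ly6e* and *Ly6a* (higher in spleen) and *Ly6c1* and *Ly6c2* (lower in spleen) are filled in Gr-1hi cells only. The *Ly6e* interaction is 1.24.

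Between the subsets, *Ly6g* had a log2 FC of 5.87 in spleen (SE 0.35, adjusted p = 5.48e-06) and 7.46 in BM (SE 0.38, adjusted p = 1.44e-06), as the sort requires. *Ly6d* was also higher in Gr-1hi cells, by 2.32 in spleen (SE 0.38, adjusted p = 0.000600) and 1.42 in BM (SE 0.49, adjusted p = 0.0278). *Ly6e* was lower in Gr-1hi cells, by a log2 FC of -0.69 in spleen (SE 0.15, adjusted p = 0.00337) and -1.93 in BM (SE 0.16, adjusted p = 6.03e-06). The Ly6C genes were lower in spleen Gr-1hi than in spleen Gr-1lo cells, *Ly6c1* by -0.93 (adjusted p = 0.00454) and *Ly6c2* by -0.90 (adjusted p = 0.00645). In BM their log2 FC was -0.47 (adjusted p = 0.0715) and -0.54 (adjusted p = 0.0542), which did not pass. *Ly6a* (-0.18 in spleen, -0.73 in BM) and *Ly6i* (-0.07 and -0.51) had adjusted p values of 0.0865 to 0.892, and the sign of *Ly6i* in spleen changed with the scaling (0.069 with RLE).

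Of the 7 members, 2 passed upwards and 3 downwards in spleen, where 33.6% and 37.8% of all genes did. In BM, 2 passed upwards and 1 downwards, where 34.5% and 41.2% of all genes did. At the study's thresholds *Ly6g* alone passed upwards in either tissue, against 4.44% of all genes in spleen and 6.56% in BM, and 0 members passed downwards, against 2.93% and 10.1%. The 5 calls in spleen held in all 16 alternatives, as did those of *Ly6g* and *Ly6e* in BM. *Ly6d* in BM lost its call without library 9 (edgeR adjusted p = 0.112) or 11 (0.117). The Ly6C genes passed in BM without library 10 (0.0463 for *Ly6c1*, 0.0472 for *Ly6c2*) or 11 (0.0375 and 0.0258), and also without libraries 5 and 7 (0.0462 and 0.0327). With no filter on low counts they passed at -0.58 (2.51e-06) and -0.64 (0.00388). With limma on quantile-normalized TPM the log2 FC was larger, at -0.99 for *Ly6c1* (adjusted p = 0.00665) and -1.43 for *Ly6c2* (adjusted p = 0.00109). *Ly6a* passed in BM without library 7 (0.0341), 8 (0.0340) or 11 (0.0497), when the fit held BM libraries alone (0.0499), and with limma on TPM (log2 FC -1.09, adjusted p = 0.0181).

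The difference between spleen and BM was itself compared between the subsets, as the log2 FC in Gr-1hi cells minus that in Gr-1lo cells. *Ly6e* had an interaction of 1.24 (SE 0.22, adjusted p = 0.00942 by edgeR's test), since its Gr-1hi libraries were 1.17 log2 units higher in spleen while its Gr-1lo libraries were at -0.06. *Ly6g* had an interaction of -1.59 (SE 0.42, adjusted p = 0.0456), with a log2 FC of 0.74 in Gr-1lo and -0.85 in Gr-1hi cells, neither of which passed. In the 5 other members the adjusted p was 0.338 to 0.699. Of all genes tested, 10.3% passed upwards and 6.08% downwards, and at an FC of at least 2 it was 7.74% and 2.00%, among them *Ly6e* and *Ly6g* again. The *Ly6e* call held in all 15 alternatives. The *Ly6g* call was lost without library 5 (adjusted p = 0.103), 7 (0.0632), 8 (0.149), 9 (0.0677), 10 (0.0729) or 11 (0.0982), and without libraries 5 and 7 (0.144). It was also lost with no filter on low counts (0.247) and with limma on quantile-normalized TPM (0.0977). Without a filter *Ly6c1* passed (-0.48, edgeR adjusted p = 0.0326). Neutrophil markers moved with *Ly6g*, with sums of 7551 to 7640 CPM in BM Gr-1lo, 11845 to 13840 CPM in spleen Gr-1lo, 159379 to 172680 CPM in BM Gr-1hi and 88128 to 119422 CPM in spleen Gr-1hi libraries. Of these 13 markers 7 had a negative interaction that passed and 0 a positive one, and their part in the value of *Ly6g* was not tested.

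*Ly6a2* and *Gm39556* were the other genes of the locus above 10 CPM. *Ly6a2*, next to *Ly6c2*, was at 308 and 557 CPM in spleen Gr-1hi, 321 and 383 CPM in spleen Gr-1lo, 436 and 518 CPM in BM Gr-1lo and 858 and 968 CPM in BM Gr-1hi libraries. Its Gr-1hi cells were lower in spleen (log2 FC -1.08, SE 0.25, adjusted p = 0.0142), where *Ly6c2* had -0.90. In BM it was higher in Gr-1hi than in Gr-1lo cells (0.94, SE 0.25, adjusted p = 0.00943), where *Ly6c2* had -0.54. That difference of *Ly6a2* depended on TMM. Without TMM its BM groups overlapped (628 and 701 CPM in Gr-1hi, 568 and 651 CPM in Gr-1lo). *Gm39556* was at 4.52 to 5.97 CPM in the 4 Gr-1lo and 87.0 to 114 CPM in the 4 Gr-1hi libraries, with log2 FC of 4.33 in BM and 4.10 in spleen (adjusted p = 1.54e-07 and 4.19e-07). Of the 10 tested rows in the locus that are not members, 6 were higher in Gr-1hi cells of spleen and 6 of BM, with 2 and 3 lower. Between the tissues, 0 passed in Gr-1lo cells, and 2 were higher and 1 lower in spleen Gr-1hi cells. Of all genes tested, 33.6% were higher and 37.8% lower in Gr-1hi cells of spleen, and 34.5% and 41.2% in those of BM. Between the tissues, 4.88% were higher and 0.697% lower in spleen Gr-1lo cells, and 20.1% and 13.9% in spleen Gr-1hi cells.

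Other genes of the Ly6 and uPAR superfamily were mostly silent. Of 36 listed, 9 passed the filter, and 4 reached 10 CPM in a group, namely *Ly6a2*, *Cd177*, *Plaur* and *Ly6g5b*. *Cd177*, a neutrophil surface antigen, was at 174 and 186 CPM in BM Gr-1lo, 331 and 371 CPM in spleen Gr-1lo, 2016 and 3036 CPM in spleen Gr-1hi and 4713 and 5063 CPM in BM Gr-1hi libraries, which is the order of groups seen for *Ly6g*. Its spleen cells were higher than BM cells in Gr-1lo (log2 FC 0.96, adjusted p = 0.0160) and lower in Gr-1hi (-0.95, adjusted p = 0.00506), with an interaction of -1.92 (SE 0.25, adjusted p = 0.00383). *Plaur*, the urokinase receptor, was at 76.2 and 81.5, 107 and 128, 358 and 548, and 684 and 833 CPM in the same order, with an interaction of -1.32 (SE 0.28, adjusted p = 0.0186). *Ly6g5b* was at 1.11 to 1.32 CPM in Gr-1lo libraries, 7.17 and 11.6 CPM in spleen Gr-1hi and 21.2 and 21.3 CPM in BM Gr-1hi, with an interaction of -1.21 (SE 0.34, adjusted p = 0.0442). Of the 9, 1 was higher in spleen Gr-1lo cells, 2 were higher and 4 lower in spleen Gr-1hi cells, 5 were higher in Gr-1hi cells of spleen, and 5 were higher and 2 lower in those of BM. The interaction passed for 2 upwards and 3 downwards. Of all genes tested, 4.88% were higher and 0.697% lower in spleen Gr-1lo cells, and 20.1% and 13.9% in spleen Gr-1hi cells. Between the subsets it was 33.6% and 37.8% in spleen and 34.5% and 41.2% in BM, and in the interaction 10.3% and 6.08%. The 9 genes had a median log2 FC of 0.03 and -0.74 between spleen and BM (Gr-1lo and Gr-1hi), beside -0.01 and 0.03 over all genes tested. Between the subsets (spleen and BM) it was 0.77 and 0.94, beside -0.09 and -0.17.

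The GPI anchor on which Ly6 proteins depend is made and attached by enzymes of the endoplasmic reticulum. All 28 genes listed for its synthesis, attachment and remodelling passed the filter. Between spleen and BM, 0 of 28 passed in Gr-1lo cells, while 3 were higher and 4 lower in spleen Gr-1hi cells. Of all genes tested, 4.88% were higher and 0.697% lower in spleen Gr-1lo cells, and 20.1% and 13.9% in spleen Gr-1hi cells. Those of the list named are *Pigp* (log2 FC 1.71) and *Pgap1* (1.64), which were higher, and *Pigb* (-0.57) and *Pigk* (-0.40), which were lower. *Pigp* was low throughout, at 0.248 and 0.486 CPM in BM Gr-1hi and 1.12 and 1.33 CPM in spleen Gr-1hi libraries. Between Gr-1hi and Gr-1lo cells, 9 of the list were higher and 13 lower in BM and 7 higher and 13 lower in spleen. Of all genes tested, 34.5% were higher and 41.2% lower in BM, and 33.6% and 37.8% in spleen. In BM the extremes of the list were *Mppe1* (1.84) and *Pigx* (1.63) upwards and *Pgap1* (-4.47) and *Pigf* (-4.02) downwards. In spleen they were *Pigv* (1.55) and *Mppe1* (1.41) upwards and *Pigf* (-2.83) and *Pgap1* (-2.47) downwards. *Pgap1* encodes an enzyme that remodels the anchor after attachment, and *Pigf* acts in adding ethanolamine phosphate to it. In BM Gr-1hi libraries *Pigf* was low, at 0.411 and 0.578 CPM. The interaction passed for 3 genes, *Pigp* (2.03), *Pgap1* (2.00) and *Pigf* (1.19), all upwards, as it did for 10.3% of all genes tested. The median log2 FC of the list was -0.37 in BM and -0.40 in spleen, beside -0.17 and -0.09 over all genes tested.

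For each member the 3 genes with the most similar pattern over the 8 libraries were found among 8591 other genes with a mean of at least 10 CPM, by the root-mean-square (RMS) difference of centred log2(CPM + 1). *Ly6g* was nearest to *Slc2a3* (RMS 0.28), which encodes a glucose transporter, *Ceacam10* (0.32) and *1700047M11Rik* (0.35). *Ly6c1* was nearest to *Usp5* (0.14), *Agfg2* (0.14) and *Smtn* (0.15), and *Ly6c2* to *Agfg2* (0.16), *Usp5* (0.17) and *Smtn* (0.18). *Ly6e* was nearest to *Tasor2* (0.10), *Bmi1* (0.12) and *Bcl11a* (0.13), and *Ly6a* to *Tmem67* (0.15), the interferon-inducible *Ifi204* (0.20) and *P4ha1* (0.24). *Ly6i* was nearest to the MHC class II gene *H2-Eb1* (0.42), the immunoglobulin segment *Ighv3-6* (0.43) and *Rasgrp1* (0.44), a gene of lymphocyte signalling. *Ly6d* was nearest to the cholesterol transporter gene *Abca1* (0.20), *Cd244a* (0.43) and *Socs1* (0.45). These distances are a description of 8 libraries in 4 groups. The RMS of a member around its own mean was 3.25 for *Ly6g*, 0.53 for *Ly6c1*, 0.56 for *Ly6c2* and 0.55 for *Ly6a*. It was 0.79 for *Ly6e*, 1.21 for *Ly6i* and 1.21 for *Ly6d*. Distances of different members are therefore not directly comparable.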

How the data were processed

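Whole-number counts per gene, without normalization, were deposited by the authors for 54188 genes and 8 libraries. Stranded poly(A) libraries were read as pairs of 101 bases, and, per the paper and the labels, reads were aligned to GRCm38 with STAR and counted with featureCounts on GENCODE M24. Strand and multi-mapping options of the counting step are not given in the sources used here. Reads shared between paralogs can be dropped or split by such a step.

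Tests were run in R 4.3.3 with edgeR 4.0.16, after its filterByExpr step (17650 genes kept) and TMM scaling. A single quasi-likelihood fit of the 8 libraries held 1 term for each group and left 4 residual degrees of freedom. The procedure was tested on simulated data. CPM are TMM-scaled. TPM used exon lengths of 53947 genes from GENCODE M21, which precedes M24 and shares its genome build. Depth was 33453580 to 68316154 counts. For counting error only, 0 counts in a library leave room for 3 counts (0.0348 to 0.124 CPM). Alternatives were RLE and upper-quartile scaling, DESeq2 1.42.0, no filter, a fit of the libraries compared, limma 3.58.1 on quantile-normalized log2(TPM + 1), *Ly6c1* and *Ly6c2* summed, and leaving out each library or libraries 5 and 7.

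All 7 members are named. Other names follow a rule, namely the 3 genes most like each member, listed family and locus genes of at least 10 CPM in a group, and the 2 largest changes each way among listed GPI genes that passed. Members, lists and rule were chosen with earlier results of these data known. The levels of a listed marker gene are not reported here. Coding and promoter sequences were aligned with Biopython 1.88.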

Additional observations from a re-analysis of the deposited data

Results flagged for a closer look

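The difference of *Ly6e* between spleen and BM itself differed between the subsets, with a log2 difference of 1.24 in Gr-1hi minus Gr-1lo cells (edgeR's test, adjusted p = 0.00942), and the 2 spleen Gr-1hi libraries lay above the 2 BM Gr-1hi libraries while the Gr-1lo groups overlapped. The difference of *Ly6g* also differed between the subsets, by -1.59 (edgeR's test, adjusted p = 0.0456). Its spleen libraries lay above BM libraries in Gr-1lo and below them in Gr-1hi cells. Neither difference between the tissues passed on its own (log2 FC 0.74 in Gr-1lo and -0.85 in Gr-1hi cells). *Ly6g* also belongs to the Gr-1 sort, and the part of the sort in this interaction was not tested. This *Ly6g* call was lost without each of libraries 5, 7, 8, 9, 10 and 11, without libraries 5 and 7 together (0.144), with no filter on low counts (0.247) and with limma on quantile-normalized TPM (0.0977).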

How the results depend on the processing

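Of 18 calls of a member in a comparison, 10 kept direction and call in every alternative run and 8 were lost in at least 1. Of 17 that did not pass, 6 passed in at least 1 alternative and 6 changed sign in at least 1. Leaving out 1 library at a time gave 0 to 2 members called in spleen against BM Gr-1lo cells, 2 to 7 in Gr-1hi cells, 5 in Gr-1hi against Gr-1lo cells of spleen, 2 to 5 in BM, and 1 to 2 in the interaction, where the remaining library of a group is assumed to vary like the other groups. Leaving out libraries also changed the number of calls over all genes, so these ranges do not describe the Ly6 genes alone. Without libraries 5 and 7, fewer of all genes passed in spleen against BM Gr-1hi cells and in the interaction than with all 8 libraries. The log2 FC in spleen against BM Gr-1hi cells was then 2.79 for *Ly6d*, 2.28 for *Ly6i*, 0.98 for *Ly6e* and 0.83 for *Ly6a*. It was -0.57 for *Ly6g*, -0.64 for *Ly6c1* and -0.66 for *Ly6c2*. With limma on quantile-normalized TPM the counts were 1 in spleen against BM Gr-1lo cells, 6 in the subsets of BM and 1 in the interaction, and without a filter 5 in the subsets of BM. DESeq2 called 2, 7, 5, 3 and 2 members in the order of comparisons above, against 2, 6, 5, 3 and 2 by edgeR. Over all genes, edgeR called 984, 5998, 12601, 13359 and 2891 of 17650. DESeq2 called 1604 of 16870, 6505 of 20168, 12047 of 22806, 13056 of 22806 and 3579 of 16211. Of 14108 genes, limma called 557 in spleen against BM Gr-1lo cells, 11107 in the subsets of BM and 1031 in the interaction. Without a filter, 13767 of 34018 were called in the subsets of BM.

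Signs changed only where the test was not passed. *Ly6e* in spleen against BM Gr-1lo cells ranged from -0.15 to 0.035 over single libraries left out and was 0.0018 without libraries 5 and 7. In the subsets of spleen, *Ly6a* ranged from -0.55 to 0.24, and *Ly6i* from -0.58 to 0.43 over single libraries left out, with 0.069 by RLE, 0.021 by upper-quartile scaling and 0.038 by DESeq2. Interactions without libraries 5 and 7 were -0.026 for *Ly6a* and -0.40 for *Ly6i*, which was -0.078 with limma on TPM. Over single libraries the interaction of *Ly6i* was -0.14 to 0.96 and that of *Ly6d* -0.13 to 1.47. The median log2 FC of all genes between subsets of BM was -0.17 with TMM and -0.03 with RLE, and no call of a member changed sign. Without TMM, the highest over the lowest group was 6.66 log2 units for *Ly6g* and 2.74 for *Ly6e*. This span was taken for each member on CPM without TMM and on TPM. It moved by more than the spread of replicates in 10 values and stayed within it in 4. With a pseudocount of 0.5, *Ly6d* shared 1 of its 3 most similar genes. No paired analysis was possible because the labels' numbers are not shared between groups.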

Other observations

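Markers of further cell types were measured beside the Ly6 genes. For comparison with the counts that follow, 4.88% of all genes tested were higher and 0.697% lower in spleen Gr-1lo cells. In spleen Gr-1hi cells it was 20.1% and 13.9%. Plasma cell markers summed to 101 to 102 CPM in BM Gr-1hi, 231 to 256 CPM in BM Gr-1lo, 288 to 392 CPM in spleen Gr-1hi and 321 to 331 CPM in spleen Gr-1lo libraries, and of the 7 tested (8 listed), 5 were higher in spleen Gr-1lo and 7 in spleen Gr-1hi cells. *Tnfrsf17*, which encodes the receptor BCMA of plasma cells, had no count in BM Gr-1hi libraries. Splenic macrophage markers summed to 225 to 343 CPM in Gr-1lo and 609 to 1130 CPM in Gr-1hi libraries, with 5 of 8 higher in spleen Gr-1lo and 8 of 8 in spleen Gr-1hi cells. Erythroid markers summed to 7.70 to 8.29 CPM in BM Gr-1lo and 35.7 to 43.8 CPM in BM Gr-1hi libraries, and to 166 to 731 CPM in spleen libraries, with 6 and 5 of the 6 tested (7 listed) higher in spleen. *Klf1* had no count in BM Gr-1hi libraries.

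Dendritic cell markers reached 111 CPM in spleen Gr-1hi libraries and 36.2 to 57.0 CPM elsewhere, with 2 of 8 higher in spleen Gr-1lo and 3 higher and 1 lower in spleen Gr-1hi cells. NK cell markers were at 2.52 to 33.1 CPM in all libraries, with 2 and 3 of 6 higher in spleen. Endothelial markers were at 25.3 to 47.0 CPM, with 1 of 6 tested higher in spleen in either subset. Stem and progenitor markers were at 20.8 to 66.2 CPM, with 1 of 5 tested higher and 1 lower in either. Monocyte markers had 0 of 10 past the test between spleen and BM Gr-1lo cells, and 4 higher and 1 lower in Gr-1hi cells. Neutrophil markers had 5 of 13 higher in spleen Gr-1lo cells, and 1 higher and 9 lower in spleen Gr-1hi cells.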
